A study of Mus musculus with 6 samples.

Results

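Expression of 3 galectin genes (Lgals1, Lgals3 and Lgals9) and 5 S100 genes (S100a1, S100a4, S100a6, S100a10 and S100a11) was examined in infarcted mouse heart. These 8 genes are a chosen part of the galectin and S100 families, without the neutrophil pair S100a8 and S100a9. Other genes of these families were left out of the 8 and are described below. All 8 were found among the 36047 genes of the data and passed the filter on low counts. RNA came from the infarct area of C57BL6 hearts, from female mice labelled as 12 weeks old, 48 h after ischemia/reperfusion (I/R), in which a coronary artery is closed for a time and then reopened. After I/R, 3 mice received LGK-974 by oral gavage, an inhibitor of Porcupine, which acylates Wnt proteins so that they can be secreted, and 3 mice received its solvent DMSO. Both groups had undergone I/R, and no uninjured heart was analysed here, so the values say nothing about injury itself. The comparison asks which galectin and S100 transcripts differ when Wnt secretion is inhibited during the inflammatory phase.

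Galectins are lectins that bind beta-galactosides on glycoproteins and can cross-link receptors on the cell surface. They leave the cell without a signal peptide, and macrophages, fibroblasts and activated lymphocytes use them in inflammation and scar formation. S100 proteins are small EF-hand proteins that mostly bind calcium and act as dimers on partners such as annexins, myosin and calcium pumps, while some act outside the cell as danger signals. In the heart, S100A1 belongs to the cardiomyocyte, whereas S100A4, S100A6, S100A10 and S100A11 are found in many cell types, leukocytes and fibroblasts included. All 5 S100 genes lie on chromosome 3, where most S100 genes of the mouse are clustered.

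With LGK-974, 7 of the 8 genes had a positive log2 fold change and only S100a1 a negative one. Of the 20094 genes tested 8130 were positive. The median of the 8 was 0.72, beside −0.13 over all genes tested. The highest value was that of Lgals3, at 1.20, followed by S100a11, Lgals9, S100a10, S100a4, Lgals1 and S100a6. In RNA of whole tissue, more cells of a type and more RNA per cell cannot be told apart. None of the 8 passed the quasi-likelihood test of edgeR once p-values were adjusted over all genes by the Benjamini-Hochberg method, by which 0 of the 20094 genes (0%) were called and 2699 had an unadjusted p-value under 0.05. Lgals3, Lgals9, S100a4, S100a10 and S100a11 were higher at an unadjusted p-value under 0.05, which is 5 of 8 beside 6.26% of all genes tested. In the same 5 genes every LGK-974 library lay above every DMSO library, beside 10.7% of all genes, and in 0 of the 8 did every LGK-974 library lie below (7.27% of all genes). DESeq2, the program named by the study, called Lgals3 and S100a11 as higher at an adjusted p-value under 0.05, which is 2 of 8 beside 0.852% of the genes to which it gave an adjusted p-value.

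The libraries held between 41579787 and 80398211 estimated counts, and single counts of the 8 genes ranged from 464 for Lgals9 in DMSO replicate 1 to 30994 for S100a11 in LGK-974 replicate 1. The mitochondrial share was 28.2 to 53.7% in the LGK-974 libraries and 39.3 to 42.8% in the controls. DMSO replicate 1 stood apart, with correlations of log2 CPM (counts scaled to library size) of 0.878 to 0.944 with the other libraries, which correlated at 0.961 to 0.987 among themselves. It also had the highest median over 1457 olfactory, vomeronasal and taste receptor genes, 31.9 counts per kb of transcript, against 2.97 to 11.5 in the others. Without it, 5 of the 8 genes were higher at an unadjusted p-value under 0.05 (6.67% of all genes) and the groups did not overlap in 5 (15.1%). DESeq2 without it, a fit chosen after the data were seen, called Lgals3 and S100a11 (1.90% of genes called higher). The plot of CPM by library shows the 8 genes.

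**Figure D1:**
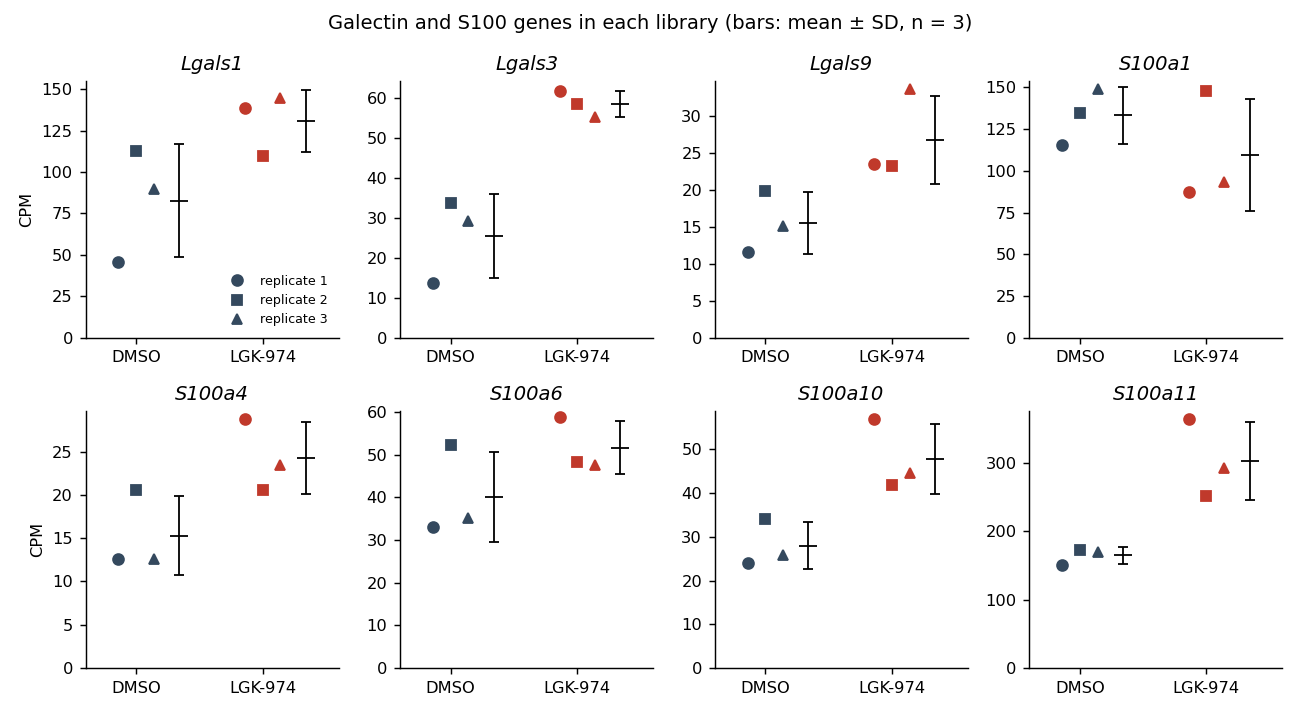
CPM (counts scaled to library size with TMM factors, linear axis from 0) of each of the 8 genes in the 3 DMSO (dark) and 3 LGK-974 (red) libraries, with the replicate number as the marker shape and the mean ± SD (n = 3) beside the points. All LGK-974 points lie above all DMSO points in Lgals3, Lgals9, S100a4, S100a10 and S100a11, and the groups overlap in Lgals1, S100a1 and S100a6.

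Promoter sequence from RefSeq (GRCm38.p6, 250 bases before to 50 after the RefSeq start) was matched for 6 of the 8 genes, not for Lgals1 and S100a10. The RefSeq start can lie inside the gene as GENCODE gives it. For Lgals3 the window runs from 47373610 to 47373909, inside the gene, so the bases before its first GENCODE exon were not searched, and the window of S100a1 reaches past its GENCODE end of 90514392 only in part. The windows of 300 bases were searched on both strands for 3 motifs, with overlaps allowed. These were the AP-1 motif TGANTCA, the TCF/LEF motif CTTTGAT through which canonical Wnt signals act, and the core GAGGAA bound by PU.1, a factor of myeloid cells. Of 32851 mouse promoters of this length, 7.81% held the first, 3.73% the second and 28.3% the third. The 250 bases before the RefSeq start are given for S100a11, which held 2 AP-1 motifs and 1 PU.1 core, for Lgals9, which held 2 PU.1 cores, and for S100a1, the gene with a negative fold change, which held no match. Capitals mark the motifs, and each sequence is read 5′ to 3′ on the strand of the gene.
S100a11, chr3:93520246-93520495, plus strand: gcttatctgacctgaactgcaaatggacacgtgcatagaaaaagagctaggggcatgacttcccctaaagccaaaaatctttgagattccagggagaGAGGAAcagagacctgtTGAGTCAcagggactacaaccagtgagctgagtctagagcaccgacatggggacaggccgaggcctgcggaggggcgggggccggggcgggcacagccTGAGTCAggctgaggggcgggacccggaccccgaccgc
Lgals9, chr11:78984925-78985174, minus strand: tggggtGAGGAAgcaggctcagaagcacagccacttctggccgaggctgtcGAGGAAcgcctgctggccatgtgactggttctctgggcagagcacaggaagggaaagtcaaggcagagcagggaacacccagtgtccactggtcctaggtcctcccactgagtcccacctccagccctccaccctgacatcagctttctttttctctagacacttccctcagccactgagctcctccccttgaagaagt
S100a1, chr3:90514331-90514580, minus strand: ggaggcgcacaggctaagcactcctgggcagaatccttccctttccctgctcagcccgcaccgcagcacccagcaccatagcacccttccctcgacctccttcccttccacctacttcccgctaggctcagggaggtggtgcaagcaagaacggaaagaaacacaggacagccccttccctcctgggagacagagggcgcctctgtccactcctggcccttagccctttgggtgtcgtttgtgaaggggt
The promoter of S100a4 held 1 PU.1 core on its reverse strand, 19 bases after the start, and the windows of Lgals3 and S100a6 held none of the 3 motifs. The letters of the TCF/LEF motif were in 0 of the 6 windows. A match describes the letters only, since binding was not measured.

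Lgals3 encodes galectin-3, a galectin with a long N-terminal tail that macrophages make in large amounts. The gene (ENSMUSG00000050335.17) lies on chromosome 14 from 47367751 to 47386160 of GRCm38, on the plus strand. Its level was 61.7, 58.3 and 55.2 CPM in LGK-974 replicates 1, 2 and 3 and 13.7, 33.6 and 29.2 CPM in DMSO replicates 1, 2 and 3. The 3 treated libraries were close together, all above the highest control, and the lowest control was DMSO replicate 1. The group means were 58.4 ± 3.28 and 25.5 ± 10.5 CPM (SD, n = 3 each). The log2 fold change was 1.20 (standard error 0.309, unadjusted p = 0.00504), with a Benjamini-Hochberg adjusted p of 0.368 by the quasi-likelihood test of edgeR. DESeq2 gave 1.22 with an adjusted p of 0.0247, and 0.90 (standard error 0.166) with an adjusted p of 4.74e-05 without DMSO replicate 1. Over all alternatives the adjusted p ranged from 4.74e-05 to 0.780, and with 1 library left out of edgeR's fit the log2 fold change lay between 0.92 and 1.49.

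Lgals9 encodes galectin-9, which carries a pair of carbohydrate-binding domains and is a ligand of the T cell receptor TIM-3. The gene (ENSMUSG00000001123.15) lies on chromosome 11 from 78962974 to 78984946, on the minus strand. Its level was 23.5, 23.3 and 33.7 CPM under LGK-974 and 11.7, 19.9 and 15.1 CPM under DMSO, in the order of the replicates. LGK-974 replicate 3 was the highest library and the groups did not overlap. The means were 26.8 ± 5.95 and 15.6 ± 4.15 CPM (SD, n = 3 each). The log2 fold change was 0.78 (standard error 0.242, unadjusted p = 0.0125, adjusted p = 0.368 by edgeR), and DESeq2 gave an adjusted p of 0.119, within a range of 0.0512 to 0.780 over the alternatives. It had the lowest level of the 8 genes per transcript length.

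Lgals1 encodes galectin-1, a dimeric galectin of stromal cells and leukocytes that can induce death of activated T cells. The gene (ENSMUSG00000068220.6) lies on chromosome 15 from 78926725 to 78930465, on the plus strand. Its level was 138, 110 and 145 CPM under LGK-974 and 45.6, 113 and 89.7 CPM under DMSO, in the order of the replicates. The groups overlapped, since DMSO replicate 2 lay above LGK-974 replicate 2. The means were 131 ± 18.8 and 82.7 ± 34.1 CPM (SD, n = 3 each). Its log2 fold change of 0.66 (standard error 0.319, unadjusted p = 0.0720) had an adjusted p of 0.373 by edgeR, and of 0.225 by DESeq2 (0.225 to 0.780 over the alternatives). The value depended on the controls, at 0.40 without DMSO replicate 1 and 0.99 without DMSO replicate 2.

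S100a11 encodes a partner of annexin A1 that takes part in membrane repair and calcium-dependent growth control. The gene (ENSMUSG00000027907.4) lies on chromosome 3 from 93520488 to 93526287, on the plus strand. Its level was 365, 251 and 293 CPM under LGK-974 and 151, 173 and 170 CPM under DMSO, in the order of the replicates. The controls lay close together and the groups were set apart by a wide gap. The means were 303 ± 57.5 and 165 ± 12.0 CPM (SD, n = 3 each). The log2 fold change was 0.88 (standard error 0.202, unadjusted p = 0.00264, rank 131 of the 20094 genes), with an adjusted p of 0.368 by edgeR. DESeq2 gave 0.91 with an adjusted p of 0.00594, and 0.82 with an adjusted p of 0.00489 without DMSO replicate 1, where the whole range over the alternatives was 0.00489 to 0.780. Of the 31-base words of its transcripts, 48.9% occur in other genes, mostly processed pseudogenes, so reads could be divided between them. The 2 pseudogenes that share most, Gm12854 and Gm7665, held 0 to 3 counts in any library.

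S100a10 encodes p11, the S100 protein that forms a tetramer with annexin A2, does not need calcium and holds plasminogen at the cell surface. The gene (ENSMUSG00000041959.14) lies on chromosome 3 from 93555080 to 93564643, on the plus strand. Its level was 57.0, 42.0 and 44.6 CPM under LGK-974 and 24.0, 34.1 and 25.8 CPM under DMSO, in the order of the replicates. LGK-974 replicate 1 was the highest and no control reached the lowest treated library. The means were 47.8 ± 8.04 and 27.9 ± 5.40 CPM (SD, n = 3 each). The log2 fold change was 0.78 (standard error 0.198, unadjusted p = 0.00475, adjusted p = 0.368 by edgeR), and DESeq2's adjusted p of 0.0599 was the lowest over the alternatives, which ranged up to 0.780.

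S100a4 encodes a binding partner of non-muscle myosin that is used as a marker of fibroblasts and is also made by leukocytes. The gene (ENSMUSG00000001020.8) lies on chromosome 3 from 90603771 to 90606045, on the plus strand. Its level was 28.8, 20.56 and 23.4 CPM under LGK-974 and 12.6, 20.54 and 12.6 CPM under DMSO, in the order of the replicates. The groups were thus separated only by the small step between the 2 libraries numbered 2, and the other controls lay well below. The means were 24.3 ± 4.17 and 15.3 ± 4.57 CPM (SD, n = 3 each). The log2 fold change was 0.67 (standard error 0.238, unadjusted p = 0.0237, adjusted p = 0.368 by edgeR), with an adjusted p of 0.175 by DESeq2 (0.106 to 0.780 over the alternatives). Without DMSO replicate 2 it was 1.02. Exons of Gm42674 on the same strand overlap those of S100a4 over 302 bases, and 49.2% of the 31-base words of S100a4 occur in that gene, which held 0 to 5 counts in each library.

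S100a6 encodes calcyclin, a protein of proliferating and stressed cells that binds the ubiquitin ligase adaptor encoded by Cacybp. The gene (ENSMUSG00000001025.8) lies on chromosome 3 from 90612882 to 90624181, on the plus strand. Its level was 58.8, 48.4 and 47.7 CPM under LGK-974 and 33.0, 52.2 and 35.1 CPM under DMSO, in the order of the replicates. DMSO replicate 2 lay above the treated libraries 2 and 3, so the groups overlapped. The means were 51.6 ± 6.21 and 40.1 ± 10.5 CPM (SD, n = 3 each). Its log2 fold change of 0.36 (standard error 0.213, unadjusted p = 0.127) had an adjusted p of 0.425 by edgeR, and of 0.392 by DESeq2 (0.392 to 0.780 over the alternatives). Without DMSO replicate 2 it was 0.67.

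S100a1 encodes the cardiomyocyte S100 protein, which binds the ryanodine receptor, the calcium pump SERCA2 and titin. The gene (ENSMUSG00000044080.9) lies on chromosome 3 from 90511034 to 90514392, on the minus strand. Its level was 87.1, 148 and 93.3 CPM under LGK-974 and 115, 135 and 149 CPM under DMSO, in the order of the replicates. The treated libraries 1 and 3 were the lowest of all, while LGK-974 replicate 2 was level with the highest control. The means were 110 ± 33.6 and 133 ± 16.9 CPM (SD, n = 3 each). The log2 fold change was −0.28 (standard error 0.241, unadjusted p = 0.276, adjusted p = 0.557 by edgeR), with an adjusted p of 0.600 by DESeq2 (0.428 to 0.912 over the alternatives). It was −0.50 without LGK-974 replicate 2 and −0.08 without DMSO replicate 3.

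**Figure D2:**
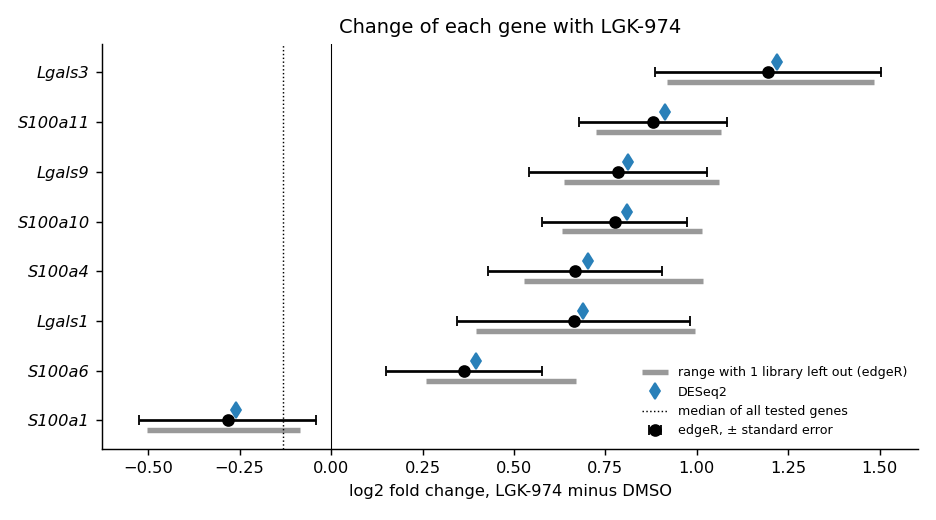
Log2 fold change (LGK-974 minus DMSO) of each gene with its standard error from edgeR (black), the value from DESeq2 (blue), the range over the 6 fits that each left out 1 library (grey) and the median of all 20094 tested genes (dotted, −0.13). Lgals3 is highest at 1.20 and S100a1 is the one gene below 0, at −0.28.

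Levels of different genes were compared in TPM, which is scaled to transcript length. S100a11 had the highest level in every library, at 1161, 568 and 1476 TPM under LGK-974 and 313, 508 and 528 TPM under DMSO. Below it under DMSO came S100a1 (239 ± 74.1 TPM), Lgals1 (122 ± 64.0), S100a6 (76.7 ± 18.5), S100a10 (49.5 ± 16.3), S100a4 (43.7 ± 17.9), Lgals3 (24.3 ± 11.3) and Lgals9 (10.7 ± 4.24; SD, n = 3 each). Under DMSO the ranges over the 3 libraries did not overlap between S100a11 and S100a1, and overlapped between all other neighbours in this order. Within each library the order still held, except that Lgals1 lay above S100a6 in 2 of 3 controls.

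Under LGK-974, Lgals1 (246 ± 128 TPM) came before S100a1 (237 ± 66.4), followed by S100a6 (128 ± 50.2), S100a10 (108 ± 43.5), S100a4 (89.2 ± 37.3), Lgals3 (69.3 ± 29.1) and Lgals9 (24.4 ± 15.4; SD, n = 3 each). The first of these orders is not firm, since Lgals1 lay above S100a1 in 2 of 3 libraries. The ranges of neighbours did not overlap for S100a11 above Lgals1, S100a1 above S100a6 and Lgals3 above Lgals9, and overlapped for the rest. TPM sums to a fixed total that includes the mitochondrial transcripts, and LGK-974 replicate 2, with the highest mitochondrial share (53.7%), had the lowest TPM of its group in every gene but S100a1.

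**Figure D3:**
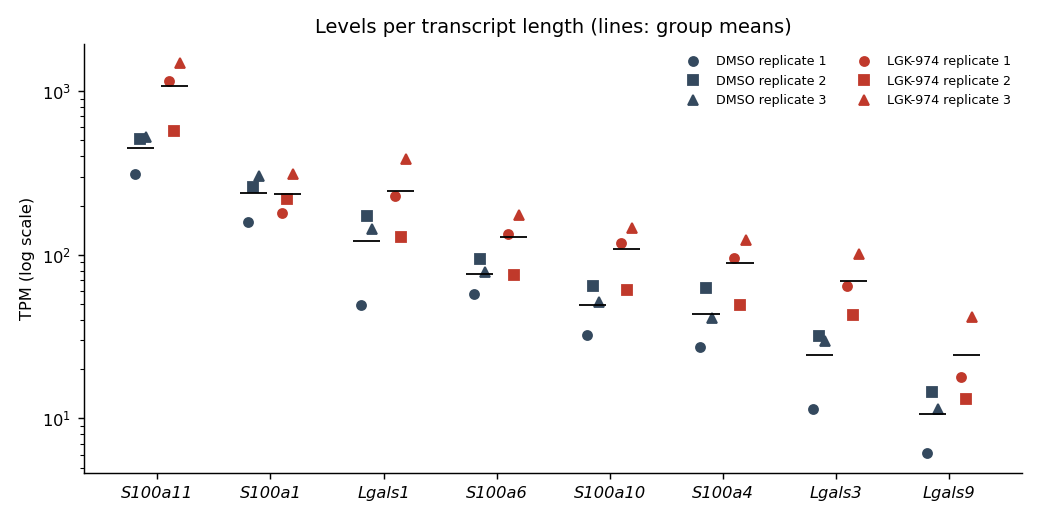
TPM (log axis) of the 8 genes in each library, ordered by the mean under DMSO, with lines at the group means. S100a11 is the highest gene in all 6 libraries (313 to 1476 TPM) and Lgals9 the lowest.

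Ratios of 2 genes within a library depend on library scaling only through the pseudocount of 0.5 CPM, and 10 such ratios were compared with exact two-sided permutation tests, whose smallest possible p with 3 against 3 is 0.1. Against S100a6, the log2 ratio of S100a10 was −0.04, −0.20 and −0.10 under LGK-974 and −0.45, −0.61 and −0.44 under DMSO, a difference of 0.39 (standard error 0.0716, exact permutation p = 0.1, adjusted p = 0.25). The groups did not overlap. The same held for S100a4 to S100a6, with a difference of 0.29 (standard error 0.0762), and for S100a11 to S100a6, with 0.48 (standard error 0.188), each at the smallest p the design allows (exact permutation p = 0.1, adjusted p = 0.25). These ratios share S100a6 and are not independent of each other. Among the galectins, the log2 ratio of Lgals3 to Lgals1 was −1.16, −0.91 and −1.38 under LGK-974 and −1.70, −1.73 and −1.60 under DMSO. The treated libraries were all higher, by 0.53 (standard error 0.144, exact permutation p = 0.1, adjusted p = 0.25). The ratio of Lgals9 to Lgals1 differed by 0.03 (standard error 0.234), less than its spread, and that of S100a1 to S100a6 by −0.70 (standard error 0.366, exact permutation p = 0.2, adjusted p = 0.4), with overlap.

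S100a10 and S100a11 were also each set against an annexin partner. The log2 ratio of S100a10 to Anxa2 differed by −0.15 (standard error 0.150) and that of S100a11 to Anxa1 by −0.12 (standard error 0.221), and the groups overlapped in both (exact permutation p = 0.4 and 0.7). The log2 fold changes of Anxa1 and Anxa2 themselves were 0.995 (standard error 0.199) and 0.92 (standard error 0.208).

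Kallisto assigns reads to transcripts, so the make-up of each gene can be read as well. One transcript held nearly the whole TPM of 6 genes. S100a11 has 1 annotated transcript, and the leading transcript held 98.6 to 100% for Lgals1, 98.2 to 99.7% for S100a1, 97.1 to 100% for S100a4, 96.7 to 98.8% for S100a10 and 89.3 to 93.7% for Lgals9. The leading transcripts encode proteins of 135 residues for Lgals1, 264 for Lgals3, 322 for Lgals9 and 89 to 101 for the S100 genes. For Lgals9 this is the transcript Lgals9-202 with 10 exons, while the protein-coding Lgals9-201 was listed at 0 in all libraries and Lgals9-203 at 0 to 0.518 TPM.

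Lgals3 and S100a6 were divided between transcripts. Lgals3-203 held 60.5, 68.3 and 60.8% of the gene under LGK-974 and 49.0, 64.9 and 63.9% under DMSO (exact permutation p = 0.6, adjusted over 6 genes 0.84). S100a6-201 held 63.9, 71.1 and 63.1% under LGK-974 and 39.5, 90.9 and 64.9% under DMSO (exact permutation p = 1). The controls thus spread more widely than the treated libraries, with DMSO replicates 1 and 2 at the ends. S100a1-201 was the only leading transcript whose share did not overlap between groups, at 98.9, 98.7 and 98.2% against 99.1, 99.7 and 99.2% (exact permutation p = 0.1, adjusted p = 0.6), a difference of −0.742 percentage points.

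**Figure D4:**
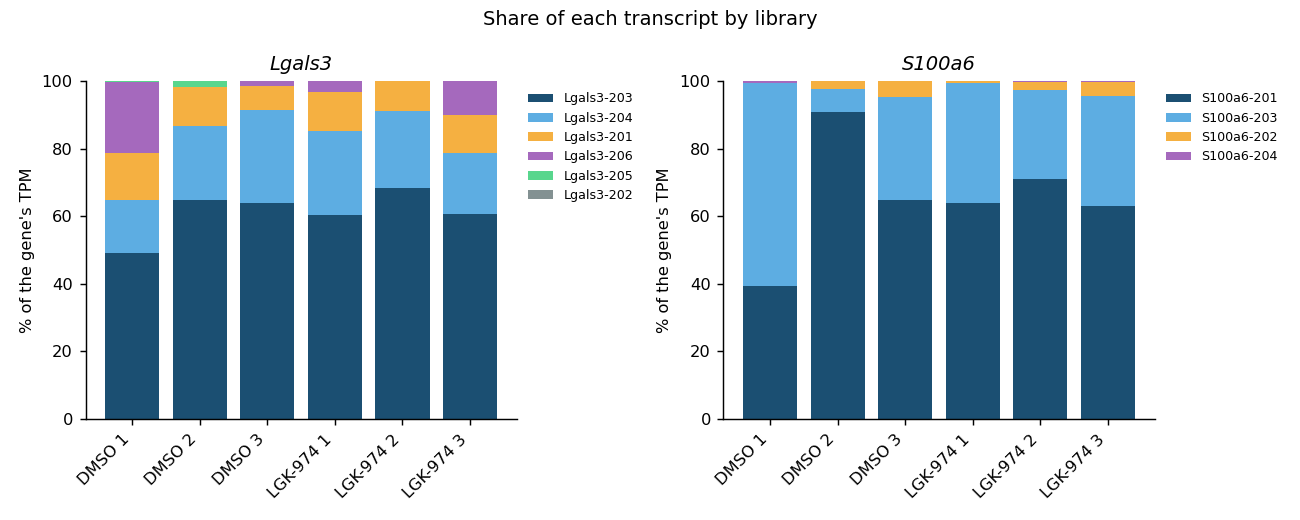
Share of each annotated transcript in the TPM of Lgals3 (left) and S100a6 (right), in % per library, stacked to 100. Lgals3-203 holds 49.0 to 68.3%, and S100a6-201 ranges from 39.5% in DMSO replicate 1 to 90.9% in DMSO replicate 2.

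Other genes of both families did not share one direction. Of 9 other galectin and galectin-related genes 6 were tested, with a median log2 fold change of −0.04. Among them 1 was higher and 1 lower at an unadjusted p-value under 0.05 (6.26% and 7.18% of all genes). The higher one was Lgals3bp, a secreted glycoprotein ligand of galectin-3 that is not itself a galectin, at 0.72 (standard error 0.204). The lower one was Lgals4, a galectin of gut epithelium, with 3.63, 3.02 and 2.76 CPM under LGK-974 and 8.90, 5.42 and 8.96 CPM under DMSO. This is a value of −1.31 on the log2 scale (standard error 0.276), with an adjusted p of 0.368 by edgeR and of 0.0374 by DESeq2. Another list held 12 genes, S100 genes and S100pbp, a gene outside the family. Of these 8 were tested, with a median of 0.03, 1 higher (S100a16, 0.46, standard error 0.170) and 0 lower at that p-value. S100a8 and S100a9, the calprotectin pair of neutrophils, differed by 0.08 (standard error 0.306) and 0.21 (standard error 0.374) on the log2 scale. S100a8 stood at 7.95, 4.05 and 4.53 CPM under LGK-974 and 5.55, 4.51 and 5.62 CPM under DMSO, so the groups overlapped, and with 1 library left out its value ranged from −0.29 to 0.33.

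Among 15 receptors of galectins and enzymes of glycan branching, which shape galectin ligands, all 15 had positive values, where 8130 of the 20094 genes tested were positive. Their median was 0.34, and 5 were higher (6.26% of all genes) and 0 lower (7.18%) at an unadjusted p-value under 0.05. The smallest p-values were those of Havcr2, which encodes TIM-3, Cd44, the hyaluronan receptor, and Ptprc, the leukocyte phosphatase CD45, at 1.16, 0.91 and 0.79 on the log2 scale (standard errors 0.226, 0.178 and 0.190). Both Havcr2 and Ptprc belong to leukocytes. Mgat5, whose enzyme adds the branch that galectins prefer, had 0.47 (standard error 0.202), with overlap between the groups.

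Annexins, the membrane-binding partners of several S100 proteins, had a median of 0.41 over 11 tested of 12, with 5 higher (6.26% of all genes) and 0 lower (7.18%) at an unadjusted p-value under 0.05, and the groups did not overlap in 8, all higher (10.7% of all genes). Anxa1, Anxa2 and Anxa3 had the smallest p-values, with 0.995, 0.92 and 0.62 (the last with standard error 0.188). DESeq2 called the first and second as higher (adjusted p = 0.00337 and 0.0129), beside 0.852% of the genes to which it gave an adjusted p-value. Of 12 other receptors and partners of S100 proteins, 3 were higher (6.26% of all genes) and 0 lower (7.18%) at that p-value, with a median of 0.17. These were Tpm3 (0.76), a tropomyosin, and Myh9 (0.76) and Myh10 (0.50), which encode non-muscle myosins, of which the first is the partner of S100A4. Cacybp, the partner of S100A6, had 0.38 (standard error 0.183), and Ager, the receptor RAGE, lay under 1 CPM in every library. Of 6 targets of S100A1 in the cardiomyocyte, 5 were tested and all 5 had negative values, where 11964 of the 20094 genes tested were negative. These values ran from −0.46 for Pln to −0.11 for Atp2a2, with a median of −0.37. Neither these 5 genes nor S100a1 reached an unadjusted p-value under 0.05.

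**Figure D5:**
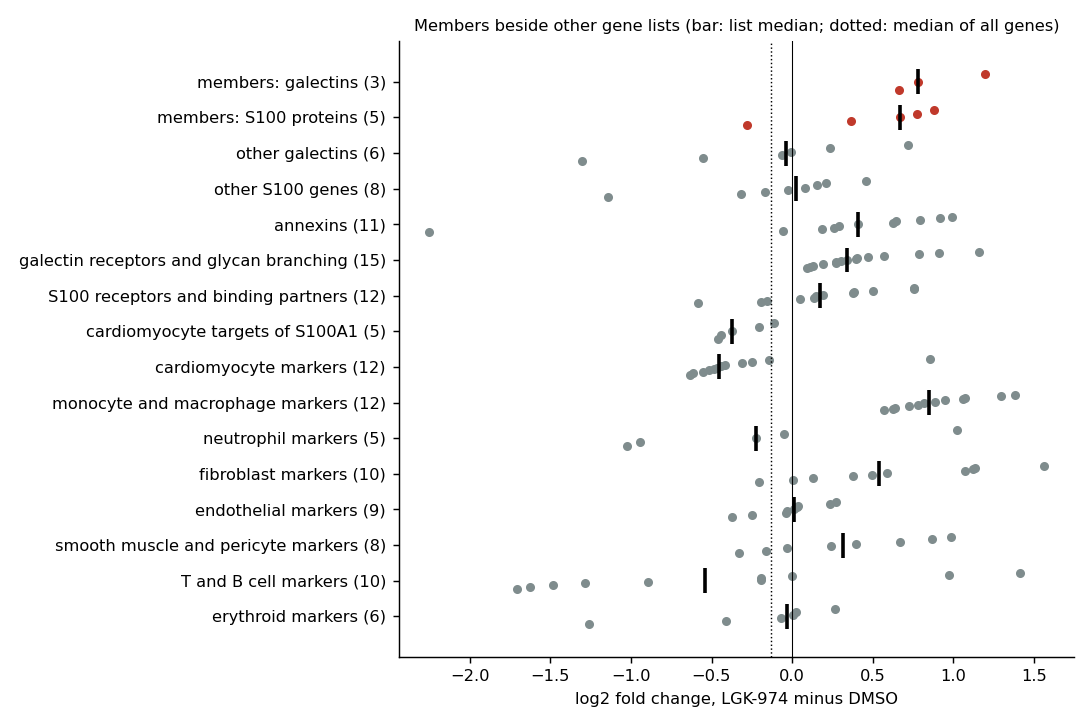
Log2 fold change (LGK-974 minus DMSO, edgeR) of each tested gene in the named lists, with the number tested in brackets, a bar at the list median and a dotted line at the median of all genes (−0.13). The 3 galectins and 4 of the 5 S100 genes (red) lie above 0, as do all 15 genes of the receptor and glycan list and all 12 monocyte and macrophage markers, while 11 of 12 cardiomyocyte markers lie below 0.

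Markers of cell types in the tissue were also compared, and only the macrophage and fibroblast lists had summed levels without overlap between groups. Of 12 monocyte and macrophage markers, 11 were higher at an unadjusted p-value under 0.05 (6.26% of all genes), and their summed level was 626 to 723 CPM under LGK-974 and 270 to 421 CPM under DMSO, with none at 0 and a median log2 fold change of 0.85. The 10 fibroblast markers summed to 3448 to 5995 CPM under LGK-974 and 1705 to 2503 CPM under DMSO, with a median of 0.54 and 4 higher (6.26%), namely Postn and 3 collagen genes. The fibroblast sum was mostly Postn and the collagen genes, and the groups overlapped in 5 of the 10 genes, among them Pdgfra at 0.13, Dcn at 0.01 and Fap at −0.21 on the log2 scale. Among the macrophage markers only C1qc overlapped. Higher without overlap were 11 macrophage and 5 fibroblast markers, beside 10.7% of all genes. The summed levels of both lists did not overlap between groups, as in Lgals3, Lgals9, S100a4, S100a10 and S100a11, and their part in the result was not tested. By flow cytometry of whole hearts at the same time after I/R, in other mice, the paper reported significantly fewer inflammatory monocytes with LGK-974. It also reported reduced leukocyte infiltration and a generally reduced myeloid response. For macrophage numbers it described a clear trend, but the difference was not statistically significant. Marker RNA is not a count of cells, and this difference in direction was not tested. The ratio of Lgals3 to the macrophage marker Cd68 differed by 0.20 on the log2 scale (standard error 0.194, exact permutation p = 0.4), with overlap.

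The 12 cardiomyocyte markers summed to 18884 to 26950 CPM under LGK-974 and 24125 to 32440 CPM under DMSO, with overlap. The libraries thus hold RNA of heart muscle, which does not tell the infarct area from other parts of the heart. The median log2 fold change of the markers was −0.46, and 11 of 12 were negative, beside 11964 of the 20094 genes tested. The exception was Actc1 (0.86, standard error 0.309). S100a1 to Tnnt2, cardiac troponin T, differed by 0.14 (standard error 0.182, exact permutation p = 0.6), and this ratio overlapped between groups too. Of 11 neutrophil markers 5 were tested, with summed levels of 28.3 to 40.8 CPM under LGK-974 and 37.9 to 78.5 CPM under DMSO, a median of −0.22 and 1 lower gene, Cxcr2 (7.18% of all genes). The highest sum was that of DMSO replicate 1, where Cxcr2 stood at 50.3 CPM against 16.6 and 17.2 in the other controls, and its log2 fold change of −1.03 was −0.27 without that library. The other 6 neutrophil markers (Retnlg, Ly6g, Camp, Ngp, Ltf and Elane) had a count of 0 in at least 1 library. Endothelial (671 to 732 and 611 to 841 CPM), smooth muscle (566 to 779 and 506 to 782 CPM), T and B cell (21.1 to 25.9 and 23.1 to 58.1 CPM) and erythroid markers (12.6 to 17.5 and 12.9 to 16.8 CPM) overlapped between LGK-974 and DMSO, with medians of 0.01, 0.32, −0.54 and −0.03, and 0 of their genes were past that p-value in either direction.

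The genes whose profile over the 6 libraries lay nearest to Lgals3, Lgals9 and the 5 S100 genes were sought among 7971 protein-coding genes with a mean of at least 10 CPM, by the root mean square difference of centred log2 CPM. Lgals3 was nearest to Mfap4, a matrix microfibril protein (0.161), then to Cd180, a leukocyte receptor, and Ftl1, ferritin light chain (0.200 and 0.208). Lgals9 was nearest to Bin1, Sbno2 and Tagln2 (0.0465, 0.0611 and 0.0647).

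S100a11 was nearest to Fibin, Cd44 and Iqgap2 (0.0809, 0.108 and 0.108). S100a10 was nearest to Xirp2, Synpo2l and Fibin (0.0693, 0.0698 and 0.0815), the first and second of which encode proteins of the cardiac sarcomere and its junctions. S100a4 was nearest to Synpo2l, Hbegf and S100a10 (0.0858, 0.0918 and 0.10). S100a6 was nearest to Golt1b, Cryab, a small heat shock protein of cardiomyocytes, and Fam102b (0.0891, 0.0918 and 0.0954). S100a1 was nearest to Map3k5, Pgam2, the muscle phosphoglycerate mutase, and Coq9, an enzyme of ubiquinone synthesis (0.0556, 0.0632 and 0.0690). Among the 8 genes, S100a4 and S100a10 were the closest pair (0.10) and Lgals3 and S100a1 the farthest (0.888). These distances describe 6 libraries and carry no test.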

How the data were processed

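RNA sequencing was read for 6 libraries of infarct tissue, 3 mice per group, grouped and numbered by the sample labels. Per the study's methods, ribosomal RNA was depleted, a capture kit was used for the libraries, and the authors quantified Ensembl transcripts of GRCm38 with Kallisto. The authors deposited, per transcript, an estimated count, which need not be whole because shared reads are divided, and a TPM value, scaled to length and library. The version of Kallisto is not given in the sources used here.

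Of 118489 transcripts, 98.6% were joined to 36047 genes through GENCODE (GRCm38), holding 99.6 to 99.7% of the counts. The estimated counts of a gene were added up and rounded. Genes that reached 10 counts in 3 or more samples were tested with edgeR 4.0.16 (R 4.3.3), by its quasi-likelihood test with TMM factors from 0.816 to 1.40, treatment as the only factor, Benjamini-Hochberg adjustment over all 20094 genes and a threshold of 0.05. The standard error of a log2 fold change was taken as its size divided by the square root of F. DESeq2 1.42.0 and limma-voom (limma 3.58.1) were alternatives. Ratios used log2(CPM + 0.5), and exact permutation tests were two-sided with adjustment over 10 ratios or 6 genes. Depth was 41579787 to 80398211 counts, and single counts of the 8 genes were at least 464. The spread between libraries thus limited precision more than counting error. Each library came from a separate mouse, so differences between mice and between library preparations cannot be told apart. The tests were tested on simulated data, in which the planted changes were larger than those of the 8 genes.

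The 8 genes and all gene lists were chosen with earlier results of these data known, so they are not independent evidence. CPM is the count scaled to library size with TMM factors. All 8 were named, with up to 3 genes of each list by smallest p, the partners in ratios, S100a8, S100a9, Lgals3bp and the 3 nearest profiles, which for Lgals1 are not reported here. Mgat5, Cacybp, Ager, Pln, Atp2a2, Lgals4's values and the pseudogenes were added after their values were seen. Further work used matplotlib 3.10.9, SciPy 1.17.1, pandas 2.3.3, NumPy 2.4.6 and Python 3.11.15.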

Additional observations from a re-analysis of the deposited data

How the results depend on the processing

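The fold changes of the 8 genes kept their sign under all 16 alternatives each, of which DESeq2 without DMSO replicate 1 was chosen after seeing the data. Over all genes, edgeR's adjusted calls numbered 0 (2699 at an unadjusted p-value under 0.05), 1206 with no filter on low counts, 289 with DESeq2, 321 with DESeq2 without DMSO replicate 1, and 0 to 2 with 1 library left out, the 2 being without DMSO replicate 1. The common dispersion was 0.238 with all libraries and 0.116 without DMSO replicate 1. Lgals3 passed the threshold with no filter on low counts (1.30, adjusted p = 0.00254 by edgeR), with DESeq2 (1.22) and with DESeq2 without DMSO replicate 1 (0.90). S100a11 passed it with DESeq2 (0.91) and with DESeq2 without DMSO replicate 1 (0.82). Over the alternatives, 4 to 7 of the 8 genes were higher at an unadjusted p-value under 0.05. The 4 came without LGK-974 replicate 1 (4.08% of all genes) and the 7 without DMSO replicate 2 (4.94% of all genes). The median of all genes moved from −0.13 to 0.02 with no filter and to 0.01 without DMSO replicate 3, and the median of the 8 genes was then 0.86 and 0.82.

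The ratio of Lgals9 to Lgals1 changed sign with a pseudocount of 5 CPM (−0.075) and in TPM (−0.0013), and ranged from −0.081 to 0.22 with 1 library left out, and that of S100a11 to Anxa1 from −0.25 to 0.054. Under LGK-974, Lgals1 moved to rank 3 and S100a1 to rank 2 in counts per kb scaled to nuclear-encoded counts, and both ranked 2 to 3 with 1 library left out. With 1 library left out, the difference in the share of the leading transcript ranged from −0.490 to 0.196 points for Lgals1, −1.19 to 6.74 for Lgals3, −11.9 to 13.8 for S100a6 and −0.174 to 0.713 for S100a10. The causes of these changes were not tested.

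Same-numbered libraries of the 2 groups correlated in their deviations from the group means at 0.487, −0.0616 and 0.315, so the numbers were not taken as pairs. With the replicate block, log2 fold changes were 0.75 for Lgals1, 1.29 for Lgals3, 0.80 for Lgals9, −0.32 for S100a1, 0.70 for S100a4, 0.39 for S100a6, 0.78 for S100a10 and 0.87 for S100a11, with 0 adjusted calls over all genes, the 8 included. At an unadjusted p-value under 0.05 the block gave 6 of the 8 genes as higher, beside 6.02% of all genes, Lgals1 being the one added. Exact tests with 3 libraries per group cannot go below p = 0.1, and below 0.25 when signs are permuted within numbers.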
